A study of Anopheles gambiae with 4 samples.

Results

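The probe sets described here are the brightest seen in abdominal fat body from adult females of Anopheles gambiae, a mosquito that transmits malaria. Among 15481 probe sets whose IDs start with Ag. but not with Ag.X., the 200 with the highest mean log2 signal over the buffer arrays were taken. The 2 of them that changed by at least 0.4 log2 in the same direction in both replicates were then dropped, which left 198. These are 1.28% of the ranked probe sets and belong to a table of 17965. The members were thus selected on their buffer signal and on their change with treatment, and their values in both are given below as descriptions, from which nothing is read.

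The samples came from females of the Yaounde strain, 3 to 4 days old, held at 25 °C and 75% humidity on 10% glucose. In the CpG-ODN group (2 arrays), the thorax was injected with 69 nL of a 0.1 mM solution of the oligodeoxynucleotide 0604, which amounts to 6.9 pmol. In the buffer group (2 arrays), the females received the same volume of elution buffer. Fat bodies were taken 18 h later in pools of 20 to 30, dissected as the abdomen without midgut, ovaries and Malpighian tubules, and 3.7 µg of total RNA went onto each single-channel Affymetrix array. The sample therefore also held what else remains in such an abdomen. The tissue label could not be checked against marker genes, because neither the table nor the reference used here pairs an ID with a gene: 0 of the 198 IDs matched the reference list of 15165 genes. The study speaks of independent experiments per treatment, and p-values measure the spread among these 4 samples. The titles, source names and protocol name the oligodeoxynucleotide 0604, while the descriptions of the 2 CpG-ODN samples spell it 0640; the sequence is the one the protocol gives for 0604. It is shown because it is the labelled difference between the groups, with capitals for its CG step, the feature that gives the class its name:
0604: tccatgaCGttcctgatgct

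The insect fat body does the work that liver and adipose tissue share in vertebrates. It stores fat and glycogen, and it makes and secretes most proteins of the haemolymph, including transport proteins, yolk precursors after a blood meal and many immune factors. In such a secretory tissue, transcripts for haemolymph proteins, protein synthesis and energy metabolism are generally plentiful. Which of these the 198 IDs stand for is not annotated in the sources used here, so the members are described by ID and no role is given to any of them.

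Brightness is not abundance in the strict sense. The signal of a probe set depends on how well its probes bind as well as on how much RNA is present, and the values of different probe sets share no length or affinity scale. The order below is therefore an order of signal, and "brightest" is used in place of "most abundant".

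The members were a small part of the probe sets and a large part of the signal. In replicates 1 and 2 they held 32.3% and 32.1% of the summed signal of the 16884 Ag. probe sets with CpG-ODN, against 32.5% and 31.8% with buffer. As group means this was 32.2% ± 0.10 with CpG-ODN and 32.1% ± 0.50 with buffer (SD, n = 2 each). The difference between treatments lay within the spread of the buffer arrays, but the rule used these values and nothing is read from it. The brightest 10 members of each array alone held 2.87% and 2.83% with CpG-ODN, against 3.05% and 2.79% with buffer.

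The median signal of the members was 7480 and 7204 on the CpG-ODN arrays, against 7192 and 7010 on the buffer arrays. The array medians of all Ag. probe sets were 69.7 and 67.2 with CpG-ODN, against 70.5 and 70.7 with buffer. The median member thus stood 107-fold above the array median on both CpG-ODN arrays, against 102-fold and 99.1-fold on the buffer arrays. The lowest member signal was 1884 and 2759 with CpG-ODN, against 2285 and 2166 with buffer. Signals of at least 10000 were read for 24 and 20 members with CpG-ODN and for 27 and 21 with buffer.

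At the top stood Ag.2L.2855.0_s_at, with a signal of 14671 and 13459 on the CpG-ODN arrays, against 15208 and 13029 on the buffer ones. It ranked first on 3 of the arrays and second on the buffer array of replicate 1. Ag.2R.23.2_a_at came next, with 13691 and 12730 on the CpG-ODN arrays, against 12830 and 12610 on the buffer ones. For the first, the mean log2 signal was 13.78 ± 0.09 with CpG-ODN and 13.78 ± 0.16 with buffer (SD, n = 2 each). For the second, it was 13.69 ± 0.07 with CpG-ODN and 13.63 ± 0.02 with buffer (SD, n = 2 each). The groups overlapped in both, but the rule used these values, so nothing is read from the overlap.

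The third place by the rule rested on a single array. Ag.3L.114.0_CDS_s_at had a signal of 8508 and 7785 with CpG-ODN, and of 18637 and 7779 with buffer. The value on the buffer array of replicate 1 was the highest of any member on any array, and the other 3 arrays lay close together. Its rank was 64 and 83 on the CpG-ODN arrays, against 1 and 79 on the buffer arrays. On buffer replicate 2 alone its log2 signal would be 12.93, against a mean of 13.56 over both buffer arrays.

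Below it the signals formed a shallow slope. Ag.2R.3698.0_s_at had 13413 and 12461 with CpG-ODN, against 13099 and 10913 with buffer. Ag.2L.150.0_CDS_a_at had 12282 and 11246 with CpG-ODN, against 12174 and 11347 with buffer. For both, the replicate 1 array was the brighter of its pair in either group. Ag.3R.155.0_CDS_s_at was the other way round, with 11346 and 12062 on the CpG-ODN arrays, against 11592 and 11783 on the buffer ones. By the 25th place the signal had come down to 10065 and 9925 with CpG-ODN, against 10021 and 9832 with buffer, for Ag.3R.171.0_CDS_at. The order of neighbours was not resolved. In all 24 pairs of neighbours among the first 25 places, the buffer means differed by less than the larger buffer SD of the pair, and from the ninth place to the 25th those means ran only from 13.39 to 13.28 log2.

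**Figure D1:**
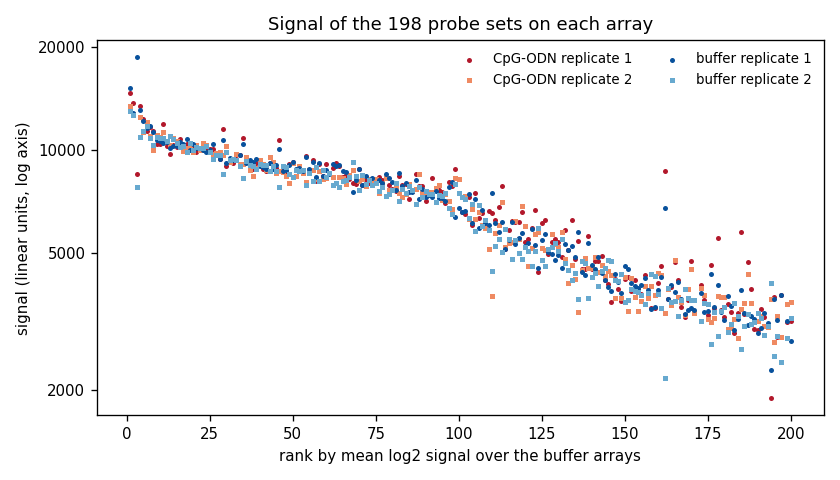
Signal of each of the 198 probe sets on the 4 arrays (vertical, linear units on a log axis) against its rank by mean log2 signal over the buffer arrays (horizontal). The points of 1 probe set mostly lie on top of each other, and Ag.3L.114.0_CDS_s_at, in the third place, has a single high point of 18637 on the buffer array of replicate 1.

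Most members were also among the 200 brightest on each array taken alone. The rule ranked by the buffer arrays, so the counts on those, and in part the count over all 4, follow from the choice. When each array was ranked on its own, 187 and 189 members lay among its 200 brightest on the CpG-ODN arrays, against 189 and 188 on the buffer arrays. On all 4 arrays at once this held for 176 members, and 22 left the top 200 on at least 1 array. The lowest rank of any member was 353 and 231 with CpG-ODN, against 286 and 288 with buffer. Ag.2R.334.0_UTR_s_at was the lowest on both replicate 1 arrays.

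The border of the group was narrow. The last 3 of the 200, in the places 198 to 200, had mean log2 buffer signals of 11.555, 11.548 and 11.548, and the next 3, in the places 201 to 203, had 11.547, 11.532 and 11.526. The dropped probe sets were Ag.2L.207.0_CDS_a_at, whose log2 change with CpG-ODN was 0.699 in replicate 1 and 0.897 in replicate 2, and Ag.3R.260.0_CDS_a_at, with 0.487 and 0.755. The members closest to that border were Ag.2R.613.0_UTR_s_at, with 0.612 and 0.395, Ag.3R.279.2_a_at, with 0.454 and 0.387, and Ag.3R.279.0_CDS_a_at, with 0.56 and 0.384. No probe set among the 200 fell by 0.4 log2 or more in both replicates.

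The IDs of the members had features that the rule did not use. Each ID holds a short tag, which is 2L, 2R, 3L or 3R, the names of chromosome arms of this species, or else UNKN. The members had 66 IDs with 2R, 50 with 3R, 40 with 2L, 32 with 3L and 10 with UNKN. As shares this was 33.3%, 25.3%, 20.2%, 16.2% and 5.05%. Over the tested probe sets outside X, drawn from the brighter 50% of the Ag. probe sets, the same tags held 31.4%, 21.4%, 23.5%, 16.2% and 7.61%. The members were thus spread over the tags about as the tested probe sets were.

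The endings of the IDs were less alike. In Affymetrix naming, _a_at marks probe sets that bind several transcripts of 1 gene, _s_at marks those that bind transcripts of several genes, and _x_at marks those with probes that may bind unrelated transcripts. Among the members, 83 ended in _a_at, 59 in plain _at, 52 in _s_at and 4 in _x_at. That is 41.9%, 29.8%, 26.3% and 2.02%, against 26.9%, 63.4%, 9.58% and 0.104% of the tested probe sets outside X. Those in _x_at were Ag.2R.10.0_CDS_x_at, Ag.2R.15.0_CDS_x_at, Ag.2R.6.0_CDS_x_at and Ag.2R.19.3_UTR_x_at. For the 52 members in _s_at and the 4 in _x_at, the signal can therefore come from more than 1 gene. UTR stood in the ID of 30 members (15.2%, against 7.92% of the tested), CDS in 131 (66.2%, against 77.5%), and neither in 37 (18.7%, against 14.6%).

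The serial number that follows the tag was low for most members. It was at most 400 in 166 of them, or 83.8%, against 21.6% of the tested probe sets outside X. Within the tags, 150 members fell in the lowest 10% of the numbers of all ranked probe sets (75.8%, against 12.8% of the tested). The median number was 167 for members with the tag 2L, 300 with 2R, 128.5 with 3L, 175 with 3R and 479 with UNKN. For the tested probe sets of the same tags it was 905, 1235, 691.5, 820 and 1040. A further 15 members lay in the highest 10%. The meaning of the number is not stated in the labels or the table.

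Some members shared the start of their ID up to the second number. The 198 members had 187 such starts. For 30 of them the array held more than 1 probe set, 62 in all, of which 41 were members. In 10 of the 30, every probe set was a member, and in the other 20 at least 1 was not. Whether the probe sets of a start measure the same transcript is not stated in the sources used here, and different probe sets share no scale, so no fold between them is given. The pairs whose signals lay closest together and farthest apart are described array by array.

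The closest pair was Ag.2L.225.0, a CDS and a UTR probe set that were both members. Ag.2L.225.0_CDS_at had 4707 and 4763 with CpG-ODN, against 3840 and 3616 with buffer. Ag.2L.225.0_UTR_at had 4573 and 4326 with CpG-ODN, against 4262 and 3469 with buffer. Both were brighter on each CpG-ODN array than on either buffer array, a contrast that the rule used and from which nothing is read.

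The widest pair was Ag.3L.121.0. Its CDS probe set Ag.3L.121.0_CDS_a_at was in the 17th place, with 10208 and 9902 with CpG-ODN, against 10408 and 10262 with buffer. Its UTR probe set Ag.3L.121.0_UTR_a_at had 78.8 and 75.9 with CpG-ODN, against 68.4 and 70.9 with buffer, close to the array median. Neither probe set varied by more than 1.2-fold over the arrays. The table gives no detection call, so whether the UTR probe set was above background is not known here.

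The members varied little over the 4 arrays. The fold between the brightest and the dimmest array of a probe set had a median of 1.13 among members, against 1.29 among the other 8244 tested probe sets. It was under 1.1 in 82 of the 198 (41.4%), against 7.34% of the others, and under 1.2 in 140 (70.7%), against 30.2%. The next 200 probe sets in the order, in the places 201 to 400, had a median of 1.26, with 30.5% under 1.2. These values rest on the same arrays as the choice of the members and are not tested. The fold also takes in the change with CpG-ODN, which the rule limited for the members alone.

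Within the members the spread changed with brightness. The brightest 66 had a median of 1.06, the middle 66 of 1.15 and the dimmest 66 of 1.18. Of the brightest 66, 60 stayed under 1.2-fold, against 36 of the dimmest 66. The narrowest member, picked out after its values were seen, was Ag.2L.4.0_CDS_a_at at 1.01-fold, with 8551 and 8571 with CpG-ODN, against 8507 and 8542 with buffer. At the other end, 5 members spanned 2-fold or more: Ag.3R.644.0_CDS_a_at at 3.99-fold, Ag.3L.114.0_CDS_s_at at 2.40-fold, Ag.3R.279.0_CDS_a_at at 2.19-fold, Ag.2R.334.0_UTR_s_at at 2.18-fold and Ag.2L.245.0_CDS_at at 2.01-fold. The second did so through the single array described above, and the others are taken up below.

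**Figure D2:**
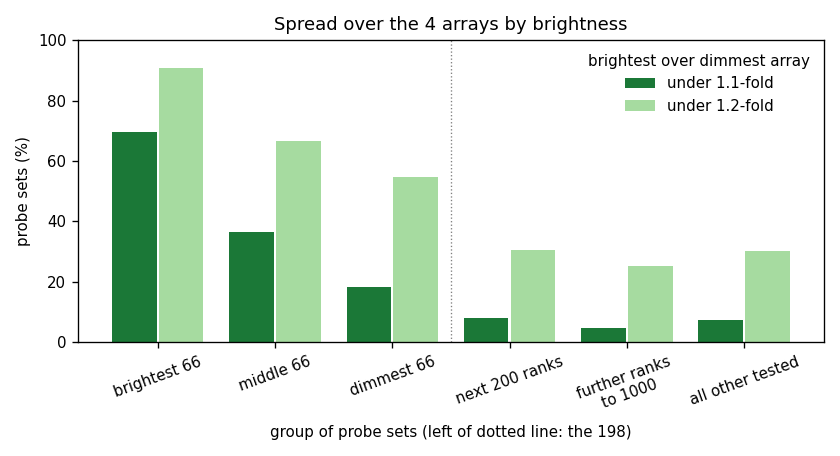
Share of probe sets (vertical, percent) whose brightest array was under 1.1-fold or under 1.2-fold above the dimmest, for the members in 3 groups of 66 by brightness, for the next ranks, and for all tested probe sets that are not members (which include those ranks). The share under 1.1-fold is 69.7% in the brightest 66 and 18.2% in the dimmest 66, against 8% in the next 200 ranks.

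The median size of replicate 1 minus replicate 2 was 0.088 log2 with CpG-ODN and 0.101 with buffer, against 0.036 and 0.062 for CpG-ODN minus buffer in replicates 1 and 2, a contrast that the rule used. The next 200 probe sets in the order, to which the limit on change was not applied, had 0.186 and 0.217 log2 between replicate numbers, against 0.099 and 0.155 between treatments. The difference between replicate numbers is a measure that the rule did not use, so it was tested. Its residual spread is the CpG-ODN minus buffer change within each number, which the rule limited for the members. The standard errors and p-values of the members are therefore not wholly outside the rule. Nothing in the labels ties equally numbered arrays to a common experiment, so this compares the 2 arrays numbered 1 with the 2 arrays numbered 2. limma called 281 of the 8442 tested probe sets at an adjusted p under 0.05 (3.33%), 131 higher in replicate 1 (1.55%) and 150 lower (1.78%). All 198 members were among the tested, and 9 of them were called (4.55%), 7 higher (3.54%) and 2 lower (1.01%). In this fit, which leaves treatment out, the share of members called was close to that of all tested probe sets. With treatment as a factor it was not close, on 1 residual degree of freedom. limma then called 43 of the 198 members, 35 higher and 8 lower, against 1061 of the 8442 tested, 556 higher and 505 lower.

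Ag.3R.644.0_CDS_a_at differed most. In replicate 1 its signal was 8653 with CpG-ODN and 6756 with buffer, and in replicate 2 it was 3345 with CpG-ODN and 2166 with buffer. Both arrays of replicate 1 were brighter than both of replicate 2, within each treatment by more than 2-fold. Its mean log2 signal was 12.90 ± 0.25 in replicate 1 and 11.39 ± 0.44 in replicate 2 (SD, n = 2 each), a difference of 1.51 (SE 0.22, limma adjusted p = 0.0367), or 2.84-fold. Ag.2L.245.0_CDS_at had 6534 and 7508 on the CpG-ODN and buffer arrays of replicate 1, and 3738 and 4437 on those of replicate 2. Its difference was 0.78 log2 (SE 0.107, limma adjusted p = 0.0354), and again the numbers did not overlap.

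Ag.2R.334.0_UTR_s_at ran the other way. Its signal was 1884 and 2285 on the CpG-ODN and buffer arrays of replicate 1, and 3673 and 4098 on those of replicate 2. It was lower in replicate 1 by a log2 difference of −0.90 (SE 0.118, limma adjusted p = 0.0345). Probe sets with the same tag and serial number that are not members had values on the same side. Replicate 1 minus replicate 2 was −0.73 for Ag.2R.334.0_CDS_s_at and −0.95 for Ag.2R.334.1_CDS_s_at, though the _s_at ending means that probes may bind the same transcripts. Such agreement in sign was not general among the ID starts. In most of the 26 CDS and UTR pairs of 1 ID start, the UTR probe set had the higher replicate 1 minus replicate 2. Ag.2R.334.0 itself was an exception. The reason was not tested. The CDS and UTR probe sets of Ag.2L.150.0 shared a sign, at 0.11 and 0.29. Those of Ag.3L.184.0, at −0.38 and 0.42, and of Ag.3R.158.0, at −0.15 and 0.18, did not. The member Ag.2R.4959.0_at was also lower in replicate 1. It had 4396 and 4514 on the CpG-ODN and buffer arrays of replicate 1, and 5756 and 5907 on those of replicate 2. Its difference was −0.39 (SE 0.055, limma adjusted p = 0.0354). It was −0.39 within each treatment, so its 2 pairs of arrays gave nearly the same value. The other 5 called members were higher in replicate 1, by 0.26 to 0.67 log2.

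These calls lay near the threshold. Over 13 alternative settings each of the 9 kept its direction in all 13 but passed in only 3 to 9, and the adjusted p of Ag.3R.644.0_CDS_a_at ran from 0.000214 to 0.0927. For Ag.2L.245.0_CDS_at it ran from 0.000871 to 0.105, for Ag.2R.334.0_UTR_s_at from 0.00219 to 0.0902, and for Ag.2R.4959.0_at from 0.00734 to 0.183. The count of members called moved with each array left out, as did the count over all tested probe sets. Each such fit leaves a single array under a replicate number, so its counts are not read as a result about the members. The split of 7 higher and 2 lower also moved with scaling. It was 2 and 3 with quantile normalization, 2 and 1 with median centring and 4 and 2 with cyclic loess. Over all tested probe sets the split of 131 and 150 became 106 and 151, 73 and 129, and 169 and 215 in the same settings.

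Across the members the differences between replicate numbers were alike in the treatments. Replicate 1 minus replicate 2 had the same sign with CpG-ODN and with buffer in 158 of the 198 (79.8%), against 80% of the next 200 probe sets in the order and 72.6% of all other tested probe sets. The share of the members was thus close to that of their neighbours in brightness. Pearson's r across the members between these differences was 0.818, against 0.698 across the next 200 and 0.663 across all others. In the brightest 66 members r was 0.588, below that of the next 200. It was 0.797 in the middle 66 and 0.889 in the dimmest 66. Each r is a description over probe sets that share the same 4 arrays and their scaling. The SD of the difference over members was 0.206 log2 with CpG-ODN and 0.245 with buffer.

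Controls on the array moved with the replicate number as well. The 3 control probe sets for mosquito actin, a cytoskeletal protein, were higher in replicate 1 by 0.34 to 0.49 log2 with CpG-ODN and by 0.07 to 0.62 with buffer. The 3 for Gapdh, a glycolytic enzyme, differed by 0.01 to 0.24 with CpG-ODN and by −0.05 to 0.32 with buffer. For both genes the probe set at the 3′ end differed more than the one at the 5′ end, a contrast commonly read as a sign of RNA quality. The part of RNA quality or labelling in the differences of the members was not tested.

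**Figure D3:**
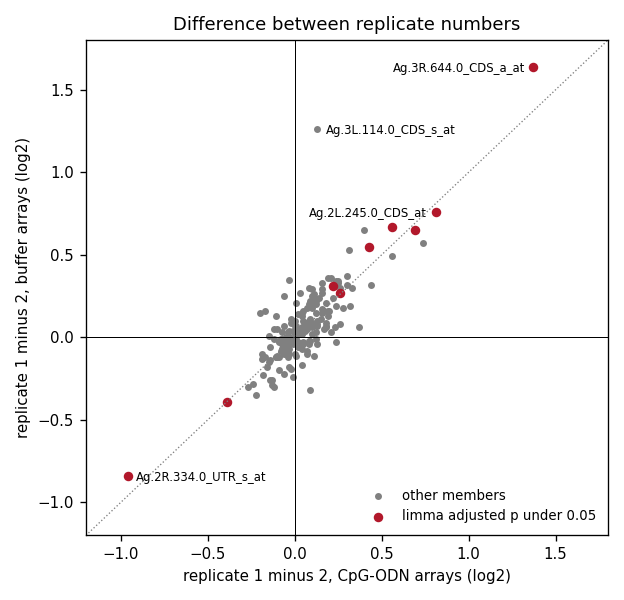
Replicate 1 minus replicate 2 in log2 signal for the 198 members, on the CpG-ODN arrays (horizontal) and on the buffer arrays (vertical), with the 9 members called by limma in red and equality dotted. Most members lie near 0 along the dotted line, Ag.3R.644.0_CDS_a_at is at 1.37 and 1.64, and Ag.3L.114.0_CDS_s_at departs on the buffer axis alone.

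Setting CpG-ODN against buffer addresses which transcripts the injected oligodeoxynucleotide changed. The rule used this contrast, so nothing is read from the values of the members. In the fit with no block, 0 of the 8442 tested probe sets were called higher by limma (0%) and 0 lower (0%), and 0 of the 198 members were called. limma gave an unadjusted p under 0.05 for 152 probe sets. With 2 arrays in each group, the smallest p that an exact permutation test allows is 0.333, and none was run.

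The members' changes, which the rule limited, had a median size of 0.036 log2 in replicate 1 and 0.062 in replicate 2. Over the other tested probe sets, to which no limit was applied, it was 0.101 and 0.173. In the next 200 of the order, also without a limit, it was 0.099 and 0.155. The members' median signed change was 0.01 log2 as deposited. It was −0.01 after quantile normalization, 0.05 after median centring and −0.06 after cyclic loess, so its sign followed the scaling. The SD over members was 0.144 in replicate 1 and 0.136 in replicate 2.

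The members closest to being dropped had the following signals. Ag.2R.613.0_UTR_s_at had 4702 and 4360 with CpG-ODN, against 3076 and 3315 with buffer. It was picked for its change with CpG-ODN, so that its groups lie apart follows from the choice. Its partner Ag.2R.613.0_CDS_s_at, which is not a member, had 1892 and 2060 with CpG-ODN, against 1145 and 1772 with buffer. Both end in _s_at and may bind the same transcripts, so the partner is no separate support.

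Ag.3R.279.0_CDS_a_at and Ag.3R.279.2_a_at share a tag and serial number. The first had 5758 and 3438 with CpG-ODN, against 3905 and 2634 with buffer, and the second had 5541 and 3754 with CpG-ODN, against 4046 and 2872 with buffer. In both probe sets CpG-ODN was above buffer within each replicate number, but CpG-ODN replicate 2 lay below buffer replicate 1, so the groups overlapped. Their differences between replicate numbers, 0.66 and 0.53 log2, were larger than their changes with CpG-ODN, 0.47 and 0.42. Ag.3L.114.0_CDS_s_at showed what 1 array can do to such a value: its change was −1.13 log2 in replicate 1 and 0.00 in replicate 2.

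**Figure D4:**
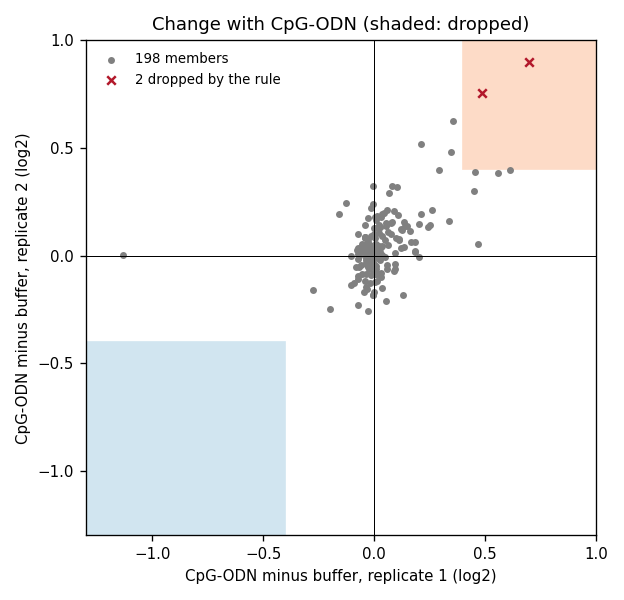
CpG-ODN minus buffer in log2 signal for the 198 members in replicate 1 (horizontal) and replicate 2 (vertical), with the 2 probe sets that the rule dropped as crosses and the regions it drops shaded. Members crowd around 0, 3 lie at the edge of the upper region, and Ag.3L.114.0_CDS_s_at stands alone at −1.13 in replicate 1.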

How the data were processed

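The authors deposited 1 table of intensity values on a linear scale, 1 value per probe set and array, made with MAS5 per the submitters' processing notes; its version, scaling target and annotation are not stated there. From these, log2 signals were taken with no pseudocount and with the deposited scaling kept. The number of arrays, 4, limits the precision.

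For differences, limma 3.58.1 was run under R 4.3.3 (lmFit, eBayes with a trend on brightness, two-sided, Benjamini-Hochberg over all tested) on 8442 Ag. probe sets, the brighter 50% over the arrays (mean signal above 69.6), and the fits were tested on simulated data. The labels do not tie same-numbered arrays to each other, so the fit between treatments had no block. The fit between replicate numbers left treatment out, and treatment as a factor was run as an alternative.

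The members and lists were chosen with earlier results of these data known. The gene and marker lists drawn up were not used, since no ID could be named. Named members were the brightest 25 (a few of which are printed), the extremes between replicate numbers, those next to the thresholds, and the widest and closest pairs of 1 ID start. Counts and ID features were computed in Python 3.11.15, and the alternatives are given in the closing section.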

Additional observations from a re-analysis of the deposited data

How the results depend on the processing

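When the replicate block was added, 21 probe sets were called by limma between CpG-ODN and buffer, 16 higher and 5 lower, on 1 residual degree of freedom. Among them was 1 member, Ag.3L.134.0_CDS_s_at; the rule used this contrast, so its call is no evidence about it. Same-numbered arrays deviated together (r = 0.664 over tested probe sets), but the labels do not pair them. The counts were 0 of both under every other alternative run, including each left-out array (0 to 0), with 74 to 618 probe sets at an unadjusted p under 0.05. Between replicate numbers, the 281 calls became 581 with no filter, 32 with the upper 25% filter and 1061 with treatment as a factor, and ran from 19 to 1188 when an array was left out. The 9 members called became 5 after quantile normalization, 3 after median centring, 2 with the upper 25% filter, 2 with no trend and 43 with treatment as a factor, and ran from 0 to 27 when an array was left out. Over all 8442 tested probe sets, the calls were 257 after quantile normalization, 202 after median centring and 190 with no trend. The upper 25% filter left 32 calls among 4221 tested. Treatment as a factor gave 43 of the 198 members against 1061 of the 8442 tested, a higher share among the members. The causes of the changes in these counts were not tested, beyond the smaller or larger set tested by each filter. The rule itself gave 100 members and 21.7% of the signal when the 100 highest were taken, and 396 and 42.5% with the 400 highest, by construction. The share was 31.5% when probe sets were dropped at 0.3 log2, and 33.1% with the IDs starting Ag.X. kept in, which brought in 14 of them. Under the other alternatives of the rule there were 195 to 199 members, 188 to 198 of them shared with the 198. The mean level of Ag.2R.23.2_a_at moved to 13.612 after median centring and 13.662 over all 4 arrays, and that of Ag.3R.155.0_CDS_s_at to 13.543 after quantile normalization and 13.49 after median centring. The differences of the 9 called members kept their direction under every alternative run. The members' median signed change with CpG-ODN was 0.01 as deposited and turned to −0.06 after cyclic loess, −0.01 after quantile normalization and −0.01 when buffer replicate 2 was left out. Their median between replicate numbers was 0.03 as deposited and −0.05 after either normalization.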
